A study of Mus musculus with 54 samples.

Results

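The genes described here are Ccl5, Gzma, Gzmb, Xcl1 and Eomes, 5 of the 27297 gene rows of the count table, followed through single progenitor cells of mouse bone marrow. They were picked with their values in these data already known: as genes of natural killer (NK) and cytotoxic cells seen in rare wells, and, for Gzmb, because it stood higher in the Cebpa knockout. Each is a row of its own that shares no symbol with another gene. Ccl5 and Xcl1 encode chemokines: the first draws T cells, NK cells and monocytes, and the second draws cross-presenting dendritic cells through Xcr1. Gzma and Gzmb encode granzymes, serine proteases that killer cells store in granules and release into a target cell through pores made by perforin. Eomes encodes a T-box transcription factor needed for NK cell maturation. In marrow these genes are known from NK cells, memory T cells and other lymphocytes, while progenitors of red cells, platelets and granulocytes are not known for them. Gzmb is also described in basophils, mast cells and plasmacytoid dendritic cells.

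The cells were C57BL/6 bone marrow cells enriched for cKit and sorted as Lin- cKit+ Sca1-, and were measured by MARS-seq, in which each well holds 1 cell and counts are unique molecular identifiers (UMIs, 1 per captured 3' end of an mRNA). A GEO sample is 1 amplification pool of 192 wells. Groups follow the description in the authors' well table. Wild-type cells were unsorted myeloid progenitors (16 pools) or common myeloid progenitors (CMP, CD34+ and FcgR(low)) gated in addition as CD41+ (2 pools) or as Flt3+ Csf1r+ (6 pools), and cells of Irf8-GFP mice were gated as CMP that were GFP+ MHCII+ (6 pools). The Cebpa knockout (12 pools) carried Cebpa(flox/flox)Mx1-Cre, in which Cre is driven by the interferon-inducible Mx1 promoter, and its control (6 pools) carried Cebpa(flox/flox). GEO labels that name these 2 groups give treatment with poly(I:C), a double-stranded RNA mimic that induces interferon. Some of those labels add a dose of 300 µg, injected 3 times with harvest 3 weeks later. The authors' table places the pools with that dose in the Flt3+ Csf1r+, Cebpe knockout and Cebpe control groups. No pool counted here as Cebpa knockout or control has a dose on its label. The Cebpe knockout was Cebpe-/- (4 pools) and its control Cebpe+/+ (2 pools). Mice were 6 to 8 weeks old, or 14 weeks in 12 pools by their labels. For 18 pools the GEO label and the authors' table name different groups, among them all Cebpe pools, 4 knockout and 2 control pools of Cebpa, so the age and treatment of these pools are not settled. Control pools 3 and 4 of Cebpa carry a strain label that names Mx1-Cre (pools are numbered within their group in accession order). Each group has 1 mouse identifier, so every p-value below measures only the spread between pools, which may be technical.

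Pools held 140748 to 854479 UMIs. Of 10260 wells sorted with 1 cell, the 8399 that reached 500 UMIs were kept, and their median was 2646 UMIs. The share kept was 60.7% in the Cebpa knockout, 78.1% in its control and 89.9% in unsorted pools. All pools used the same 192 well barcodes. The deleted genes matched the table's groups: Cebpa stood at 0 to 6.80 CPM (counts per 1000000 UMIs of the same cells) in the knockout pools against 73.8 to 152 in the control pools, and Cebpe had 0 UMIs in all 4 Cebpe knockout pools against 35.9 to 67.2 CPM in the Cebpe control. Where the deletions lie within these genes is not stated in the labels.

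The proximal promoters of Gzmb, Gzma and Xcl1 are printed because the first was mostly found in other cells than the latter pair. Each sequence is the 250 bases before the RefSeq start of the gene on the GRCm38.p6 build, 5' to 3' on the gene's own strand. The stretches are chr14:56262335-56262584 for Gzmb, chr13:113100982-113101231 for Gzma and chr1:164935523-164935772 for Xcl1, all on the minus strand. Capitals mark matches to any of 8 motifs searched on both strands.
Gzmb: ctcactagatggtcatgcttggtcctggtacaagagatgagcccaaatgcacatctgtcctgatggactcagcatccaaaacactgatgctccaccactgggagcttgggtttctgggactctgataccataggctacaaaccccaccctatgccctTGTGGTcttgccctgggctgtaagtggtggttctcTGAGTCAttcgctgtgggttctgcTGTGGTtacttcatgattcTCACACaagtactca
Gzma: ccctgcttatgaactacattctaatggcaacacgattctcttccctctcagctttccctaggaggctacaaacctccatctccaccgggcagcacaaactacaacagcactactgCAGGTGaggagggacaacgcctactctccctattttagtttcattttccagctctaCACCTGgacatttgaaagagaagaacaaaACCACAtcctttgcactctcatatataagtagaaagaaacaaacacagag
Xcl1: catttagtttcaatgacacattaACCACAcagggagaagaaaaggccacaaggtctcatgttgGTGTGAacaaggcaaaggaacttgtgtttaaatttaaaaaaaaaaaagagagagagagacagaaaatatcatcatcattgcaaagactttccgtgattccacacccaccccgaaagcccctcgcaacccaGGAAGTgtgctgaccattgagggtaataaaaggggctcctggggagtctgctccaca

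The motifs were RUNX (TGTGGT, in 14.0% of 32851 RefSeq promoters of this length), T-box (TCACAC, 12.3%), ETS (GGAAGT, 19.7%), the motif of Gata factors (AGATAA, 9.99%), C/EBP (TTNNGNAA, 36.8%), CRE (TGACGTNA, 2.52%), AP-1 (TGANTCA, 6.75%) and an E-box (CAGGTG, 17.2%). The Gzmb promoter held 2 RUNX matches, at 93 to 88 and 34 to 29 bases before the start, an AP-1 match at 58 to 52 and a T-box match at 15 to 10. In the Gzma promoter there was 1 RUNX match (50 to 45 bases before the start) and 2 E-boxes. The Xcl1 promoter held 1 RUNX, 1 T-box and 1 ETS match, and the Eomes promoter held none of the 8. These letters are a description and not evidence of binding. The table of promoters used here matched 4 of the 5 genes.

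Most kept cells had no UMI of any of the 5 genes. Of 8399 kept cells, 7995 had a summed count of 0, 256 had 1 and 46 had 2. A cell with 3 or more was called a rare cell, and there were 102 of them (1.21%, 95% interval 0.991 to 1.47; intervals of shares are exact Clopper-Pearson and cover counting error only). Just inside that limit lay 12 cells with 3 UMIs. Just outside it, 26 of the 46 cells with 2 UMIs had both from Gzmb and 17 had both from Ccl5. The rare cells held 0.693% of all UMIs in kept cells, but 77.7% of the 956 Ccl5 UMIs, 92.9% of the 42 Gzma UMIs, 89.4% of the 142 Xcl1 UMIs and 87.0% of the 23 Eomes UMIs. Gzmb differed in this respect, with 50.2% of its 229 UMIs in rare cells. In the 108 wells that received no cell, none of the 5 genes had a UMI among 6279, which allows up to 2.78% of such wells.

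The rare cells were of 2 kinds, split after their values were seen. In 80 cells, Ccl5 or its companions led, and these are called Ccl5-led. In the other 22, Gzmb exceeded the sum of the other 4 genes, and these are called Gzmb-led. Every Ccl5-led cell had Ccl5, between 1 and 35 UMIs, and 79 of the 80 had no Gzmb UMI. Xcl1 was present in 31 of them, Gzma in 16 and Eomes in 12, while 38 had Ccl5 alone. Xcl1 exceeded Ccl5 in 3 cells. The cell with the largest sum, in pool 6 of the Irf8-GFP+ MHCII+ gate, held 21 Ccl5, 18 Xcl1 and 9 Gzma UMIs among 5739. Of the 22 Gzmb-led cells, 21 had no UMI of the other 4 genes, and the remaining one had 2 Gzmb and 1 Ccl5. Few rare cells thus held both Ccl5 and Gzmb, but the split into kinds used these same counts. Gzmb was uncommon outside rare cells as well. It was found in 0.259% of such unsorted cells, 0.0928% in the Irf8-GFP+ MHCII+ gate and 5.31% in the Cebpa knockout.

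**Figure D1:**
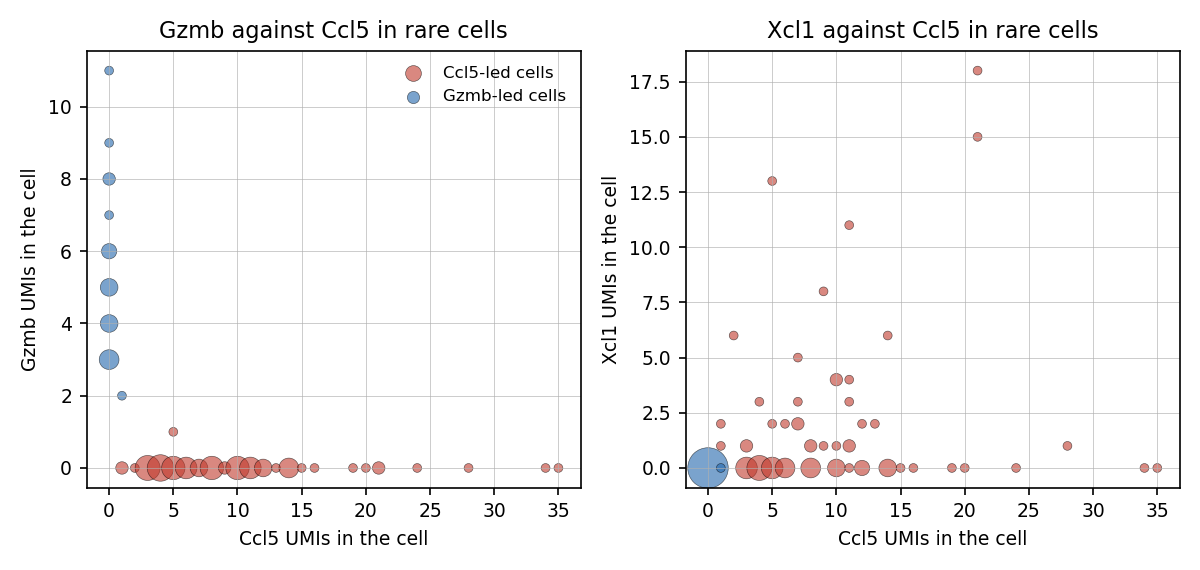
UMIs per rare cell: Gzmb against Ccl5 on the left and Xcl1 against Ccl5 on the right, with point area proportional to the number of cells at that pair of values. The 80 Ccl5-led cells (red) lie along the Ccl5 axis with up to 35 Ccl5 UMIs, and the 22 Gzmb-led cells (blue) lie at 0 or 1 Ccl5 UMI with up to 11 Gzmb UMIs.

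The 2 kinds were spread unevenly over the groups. These numbers are a description, since the rule that chose the cells used them. The Irf8-GFP+ MHCII+ gate had 38 rare cells of 1116 (3.41%, interval 2.42 to 4.64), all Ccl5-led and found in 6 of 6 pools, with 0.541, 2.99 and 6.42% of cells in the lowest, median and highest pool. Unsorted progenitors had 28 Ccl5-led and 4 Gzmb-led cells of 2732 (1.17% together, 0.803 to 1.65), in 14 of 16 pools. The Cebpa knockout had 10 Ccl5-led and 17 Gzmb-led cells of 1384 (1.95% together, 1.29 to 2.83), in 10 of 12 pools. Its control had 1 Ccl5-led cell of 890 (0.112%, 0.00284 to 0.624). The Flt3+ Csf1r+ gate had 1 Ccl5-led cell of 1132, the Cebpe knockout 1 Gzmb-led cell of 559 and the Cebpe control 2 Ccl5-led cells of 250. In the CD41 gate 0 of 336 cells were rare, which allows up to 0.893%.

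Pools within a group differed widely. In the Irf8-GFP+ MHCII+ gate, pools 1 to 6 held 2, 12, 4, 7, 1 and 12 rare cells. Pools 1 and 2 shared a plate, as did pools 3 and 4 and pools 5 and 6, so the counts of 1 and 12 came from the same plate. Restricted to pools where label and table agree, the shares were 3.36% in the Irf8-GFP+ MHCII+ gate (25 of 743), 2.24% in the Cebpa knockout (19 of 847) and 0.179% in its control (1 of 558). Within sequencing batch SB23 the knockout had 8 rare cells of 537 and the control 0 of 332. Within batch SB29 there were 19 of 847 and 1 of 558. Within batch SB25 the Irf8-GFP+ MHCII+ gate had 38 of 1116 and the Flt3+ Csf1r+ gate 1 of 380.

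**Figure D2:**
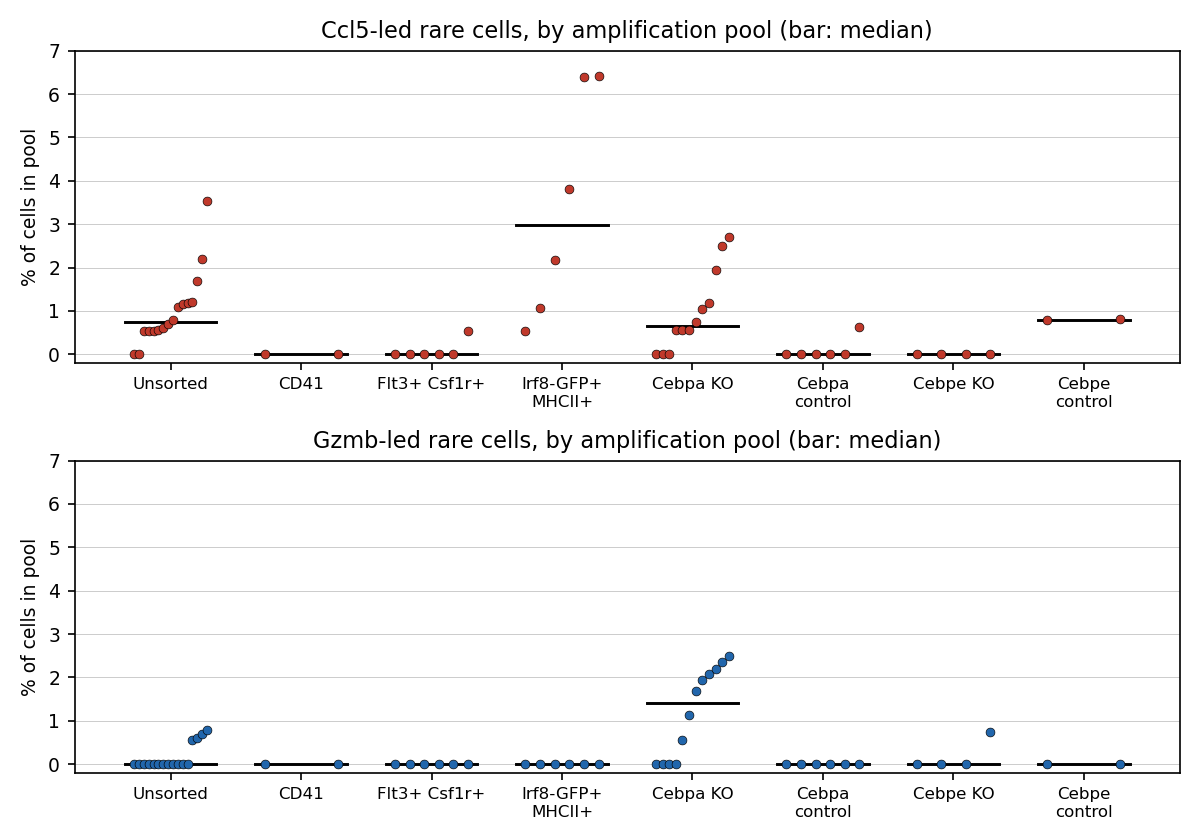
Share of kept cells (percent, vertical axis) that were Ccl5-led (upper panel) or Gzmb-led (lower panel) in each amplification pool, by group, with a bar at the median over pools. Ccl5-led cells reached 6.42% in the Irf8-GFP+ MHCII+ gate, whose pools had no Gzmb-led cell, and Gzmb-led cells were found in 8 of 12 Cebpa knockout pools, 4 of 16 unsorted pools and 1 of 4 Cebpe knockout pools.

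Ccl5, summed over all kept cells of a pool, was at 22.8, 114 and 272 CPM in the lowest, median and highest of the 6 Irf8-GFP+ MHCII+ pools. In the 12 Cebpa knockout pools these values were 0, 27.6 and 107 CPM, and in the 16 unsorted pools 1.67, 21.9 and 127. The Cebpe control pools stood at 20.2 and 30.8 CPM. The Flt3+ Csf1r+ pools (0, 6.06 and 17.5 CPM), the CD41 pools (0 and 2.67), the Cebpa control pools (0, 0 and 8.24) and the Cebpe knockout pools (2.27 in 1 pool and 0 in 3) were lower. Ranges of the 4 higher groups overlap one another, and so do those of the 4 lower groups. The lowest Irf8-GFP+ MHCII+ pool was above every pool of the 4 lower groups.

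Xcl1 followed the same cells and was detected in fewer pools. It reached 0, 25.0 and 66.1 CPM in the Irf8-GFP+ MHCII+ gate and 0, 0.664 and 22.5 CPM in unsorted pools. Elsewhere it had 1 UMI in 1 of 12 Cebpa knockout pools and 1 UMI in 1 of 4 Cebpe knockout pools, and 0 in all Flt3+ Csf1r+, CD41, Cebpa control and Cebpe control pools. Gzma was found in 6 of 16 unsorted pools (highest 15.2 CPM), 3 of 6 Irf8-GFP+ MHCII+ pools (highest 16.9), 1 Cebpa control pool (2.75) and 1 Cebpe control pool (5.13), and in none of the 12 Cebpa knockout pools. Eomes was found in 5 of 16 unsorted pools (highest 6.06 CPM) and 4 of 6 Irf8-GFP+ MHCII+ pools (highest 15.9), and in no pool of the other 6 groups. Among 1384 Cebpa knockout cells, then, Ccl5 had 131 UMIs while Xcl1 had 1, Gzma 0 and Eomes 0.

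In the Cebpe comparison Ccl5 had 1 UMI in the knockout (0.466 CPM, 95% Poisson interval 0.0118 to 2.60) and 12 and 18 in the 2 control pools (25.4 CPM together, 17.1 to 36.3). Of the 30 control UMIs, 27 came from 2 cells, with 11 and 16. By counting, Ccl5 was 54.6-fold higher in the control (interval 9.07 to 2226, counting error only). It would enter a test only through the control, where it is high, so no p is given. Both control pools came from 1 plate and the 4 knockout pools from 2, so plate and genotype cannot be told apart here.

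The Ccl5-led cells of unsorted marrow carried transcripts of NK cells. Of 9 NK markers (Klrb1c, Klrd1, Klre1, Klrk1, Ncr1, Nkg7, Prf1, Il2rb and Tbx21), all 9 were detected and all 28 cells had at least 1 UMI of the list. The list summed to 5568 CPM, against 244 CPM in the other unsorted cells. Il2rb, the beta chain of the interleukin 2 and 15 receptor, had 10 UMIs in 8 cells, and Klrk1, the activating receptor NKG2D, had 27 UMIs in 16 cells. Ctsw, a cysteine protease of cytotoxic lymphocytes, had 32 UMIs in 22 cells. T cell markers were present in 4 cells and B cell markers in 2. Ccl5 ran from 3 to 21 UMIs in these cells, Xcl1 had 41 UMIs in 12 cells, Gzma 15 in 8 and Eomes 7 in 6. The cells were small libraries: their median was 818 UMIs, against 3135.5 in the other unsorted cells.

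In the Irf8-GFP+ MHCII+ gate the Ccl5-led cells were larger and more mixed. Their median was 2244.5 UMIs (2801 in the other cells of the gate), and 29 of 38 had an NK marker, 10 had a T marker and 8 had neither. The NK list summed to 1762 CPM against 165 CPM in the other cells of the gate, with Klrd1 at 0. Cd3d, a chain of the T cell receptor complex, had 18 UMIs in 8 cells. In the 30 cells with an NK or T marker, Xcl1 stood at 1032 CPM, Gzma at 239 CPM and Cd7, a surface protein of T and NK cells, at 1964 CPM. In the 8 cells without one, Xcl1 stood at 160 CPM, Gzma at 0 and Cd7 at 585 CPM. These 8 cells had more Cd74, the MHC class II invariant chain (13731 against 4684 CPM), and Ccr7, a homing receptor of migrating dendritic cells, was found in 5 of 8 (2235 CPM) against 5 of 30 (705 CPM). The 11 Cd7 UMIs of the 8 cells were all in 1 cell, and at the median of 2129.5 UMIs of these 8 a marker at low level can go undetected. Xcr1, the receptor for Xcl1, had 2 UMIs in the 38 Ccl5-led cells of this gate and 284 in its 1078 other cells. These counts are not at equal depth: the 30 and 8 Ccl5-led cells held 79423 and 18789 UMIs, and the other cells 3476318.

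The 10 Ccl5-led cells of the Cebpa knockout came from 9 pools and had a median of 982.5 UMIs. They had 4 to 24 Ccl5 UMIs each, and 7 of them had an NK marker, with 5 of the 9 markers detected and Klrd1, Klre1, Ncr1 and Prf1 at 0. Markers of innate lymphoid cells (Il7r, Gata3, Rora, Il1rl1 and Zbtb16) summed to 1470 CPM in them, 17 UMIs in 4 cells, against 55.2 CPM in the other knockout cells. Among these, Gata3 had 6 UMIs in 3 cells and Zbtb16 6 UMIs in 2, while Il1rl1 was at 0. The dendritic list was higher as well, at 4409 against 92.2 CPM (51 UMIs in 6 cells). Of these, 25 UMIs were from Id2, a repressor found in both innate lymphocytes and dendritic cells, and 13 from Cd74 in 2 cells, while Xcr1 and Batf3 were at 0. The basophil and mast list stood at 1124 against 222 CPM, with 12 of its 13 UMIs from Lmo4. The single rare cell of the Cebpa control held 5 Ccl5 and 2 Gzma UMIs and no NK or T marker, and that of the Flt3+ Csf1r+ gate held 3 Ccl5 UMIs among 4736 and no NK or T marker.

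**Figure D3:**
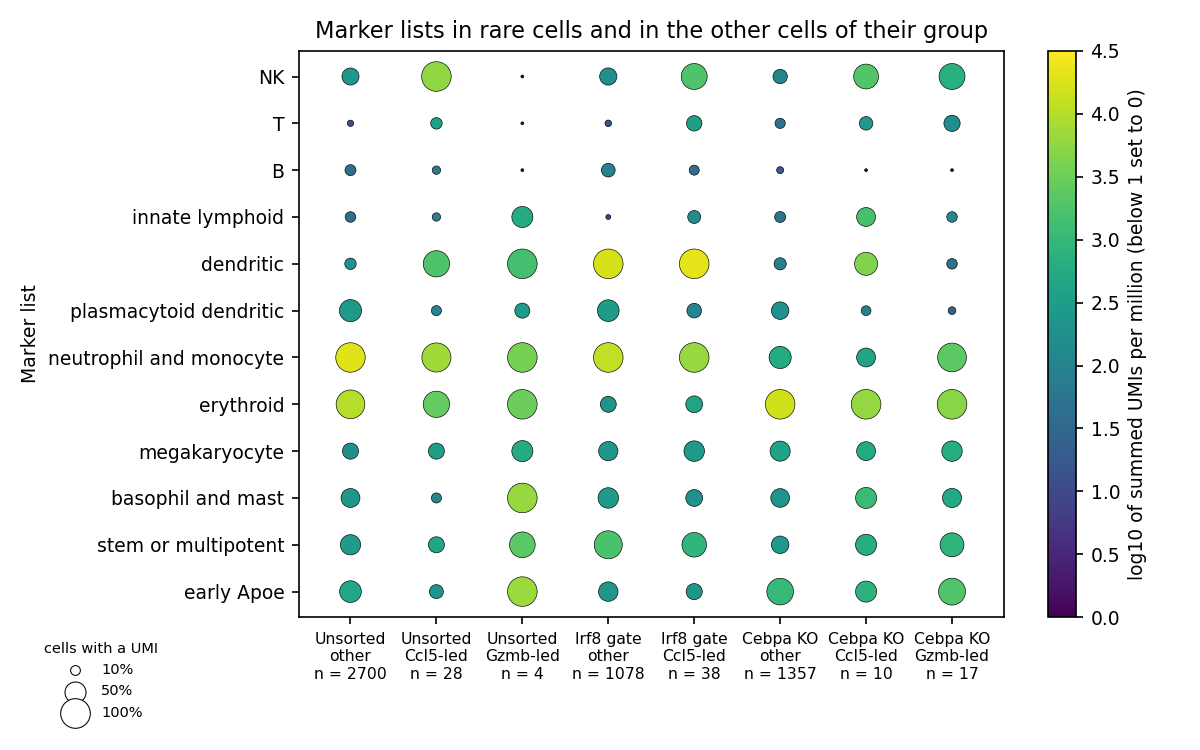
Summed marker lists (rows) in the rare cells and the other kept cells of 3 groups (columns, with the number of cells): colour is log10 of the summed CPM and dot area the share of cells with a UMI. The NK list is highest in unsorted Ccl5-led cells (5568 CPM) and at 0 in the 4 unsorted Gzmb-led cells. The basophil and mast and early Apoe lists of the latter stand at 6175 and 6736 CPM, and both lists count the UMIs of Gata2.

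Of a list of 37 other cytotoxic genes, 34 had a UMI in Ccl5-led cells and 33 had a higher CPM there than in the 8297 kept cells that were not rare. In Gzmb-led cells 11 had a UMI and 9 were higher. A single UMI already makes 6.78 CPM in the Ccl5-led cells and 23.3 CPM in the Gzmb-led cells. A scarce gene thus counts as higher once it is detected, as Gzmc, Serpinb9b, Klrc1 and Il18rap did on 1 UMI each in Ccl5-led cells. The share of all genes that were higher is not given, so the counts of higher genes carry no conclusion. The list was chosen with earlier results of these data known, and since the cells were picked by related genes, these counts are descriptions. Values for both kinds pool all groups. Of the Ccl5-led cells, 38 of 80 came from the Irf8-GFP+ MHCII+ gate, and of the Gzmb-led cells, 17 of 22 from the Cebpa knockout. Kind of cell and makeup of the groups are therefore not told apart in them. Among granule genes, Ctsw stood at 461 CPM in Ccl5-led cells against 3.55 in other cells, Gzmm at 81.3 against 1.83 and Nkg7 at 990 against 202. Perforin (Prf1) had 4 UMIs in 3 Ccl5-led cells and 3 UMIs in all other cells. Granzyme inhibitors were found with them: Serpinb6b at 224 against 5.61 CPM and Serpinb9 at 94.9 against 3.26 CPM. Of the transcription factors, Tbx21, the T-box partner of Eomes in NK cells, had 14 UMIs in 13 Ccl5-led cells and 4 UMIs in all others. Id2 stood at 1607 against 118 CPM over all groups. Within the Irf8-GFP+ MHCII+ gate the gap was smaller. There Id2 was at 1738 and 1810 CPM in Ccl5-led cells with and without an NK or T marker. In the gate's cells that were not rare it was at 600 CPM with Ccl5 and 802 CPM without. The kinase gene Lck had 47 UMIs in 33 cells. Ccl3 and Ccl4, chemokines of the same family as Ccl5, stood at 136 and 183 CPM against 3.11 and 1.94. Gzmm, Ccl3, Ccl4, Klrb1c, Klrd1, Gzmc, Klrc1, Cd244 and Zeb2 are rows joined with another symbol, so their values are uncertain. Gzmk, Ccr1 and Ccr3 had no UMI in Ccl5-led cells.

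Fewer genes of this list were detected in the Gzmb-led cells, which also held fewer UMIs (0.156% of all, against 0.537% in Ccl5-led cells), so the numbers of detected genes are not at equal depth. Srgn, the proteoglycan core of secretory granules in many blood cells, stood at 3944 CPM in them against 1770 in other cells, Nkg7 at 653 against 202 and Cst7 at 327 against 138. Ctsw, Prf1, Ncr1, Klrk1, Il2rb and Tbx21 had 0 UMIs. Of the 9 NK markers only Nkg7 (28 UMIs) and Klrb1c (1 UMI) were detected in the 22 cells, and of 7 T markers only Lat (6 UMIs).

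Leaving out the 5 genes that chose the cells, the 10 of 11714 ranked genes (at least 20 UMIs in kept cells) with the largest share of their UMIs in rare cells were Gimap3 (82.1%, 23 of 28 UMIs), Sh2d1a, Cd3d, Crtam, Samd3, Il2rb, Sh2d2a, Cd2, Ikzf3 and Gimap4 (70.4%, 19 of 27). All of their UMIs in rare cells were in Ccl5-led cells. Sh2d1a and Sh2d2a encode adaptors of lymphocyte receptors, Cd2 a lymphocyte adhesion receptor and Gimap3 and Gimap4 GTPases of lymphocytes. Ranked for the Gzmb-led cells alone, again without the 5, the leading genes were others: Cyp11a1 (12.2%, 5 of 41 UMIs), Qrfp (8.20%) and Scin (8.00%, 56 of 700 UMIs in 17 of the 22 cells). Cyp11a1 encodes the enzyme that opens steroid synthesis, and Scin encodes scinderin, an actin-severing protein.

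The 4 unsorted Gzmb-led cells were each from a different pool and had 8, 9, 5 and 8 Gzmb UMIs among 535 to 1624. They had 0 UMIs of the 9 NK and 7 T markers. The basophil and mast list summed to 6175 CPM in them against 241 CPM in other unsorted cells, through Gata2 (15 UMIs in 3 cells), a transcription factor of mast and early progenitor cells, and Lmo4 (7 UMIs in 3 cells), while Prss34, Mcpt8 and Cpa3, proteases of basophils and mast cells, were at 0. Gata2 is also on the early Apoe list, so its 15 UMIs count in both lists. Apoe had 7 UMIs in 3 cells and Cyp11a1 3 UMIs in 3 cells. The Gzmb-led cell of the Cebpe knockout held 6 Gzmb UMIs among 974.

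The 17 Gzmb-led cells of the Cebpa knockout had 2 to 11 Gzmb UMIs, a median of 4, among a median of 2123 UMIs. Scin had 44 UMIs in 13 of them, Ifitm1, an interferon-inducible membrane protein also made in early progenitors, 134 UMIs in 14, Srgn 134 in 17 and Mpo, the myeloid granule peroxidase, 67 in 15. Nkg7 had 26 UMIs in 12, and Klrd1, Klre1, Klrk1, Ncr1, Prf1, Il2rb and Tbx21 were at 0. By the highest of the marker list scores, 7 of the 17 fell with erythroid cells, 5 with stem or multipotent cells 2 each with megakaryocyte and early Apoe cells and 1 with basophil and mast cells. A score cut gives a range and not a cell type.

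Surface protein from index sorting did not enter the choice of cells. In unsorted marrow the medians of the 2 kinds differed, but their ranges overlapped for both proteins. Of 27 measured Ccl5-led cells, 26 lay below the CD34 median of their pool, with a median intensity of 28 (lowest 0, highest 565) against 136 in 2677 other cells. FcgR was 310 in the median (17 to 1302) against 211, and 20 of the 27 lay above the FcgR median of their pool. The 4 Gzmb-led cells all lay above the FcgR median of their pool, at 986 to 3818 (median 2654), and had CD34 at 30 to 207 (median 145). In the Cebpa knockout 5 Gzmb-led cells were measured: FcgR was above the pool median in 5 of 5 (247 to 1444, against a median of 175.5 in 528 other cells) and CD34 in 4 of 5. The 3 measured Ccl5-led knockout cells had CD34 of 127 to 173 and all lay above the CD34 median of their pool, unlike the Ccl5-led cells of unsorted marrow. These 5 and 3 knockout cells equal in number the rare cells of each kind in batch SB23. All 4 knockout pools of that batch carry a GEO label of another group.

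**Figure D4:**
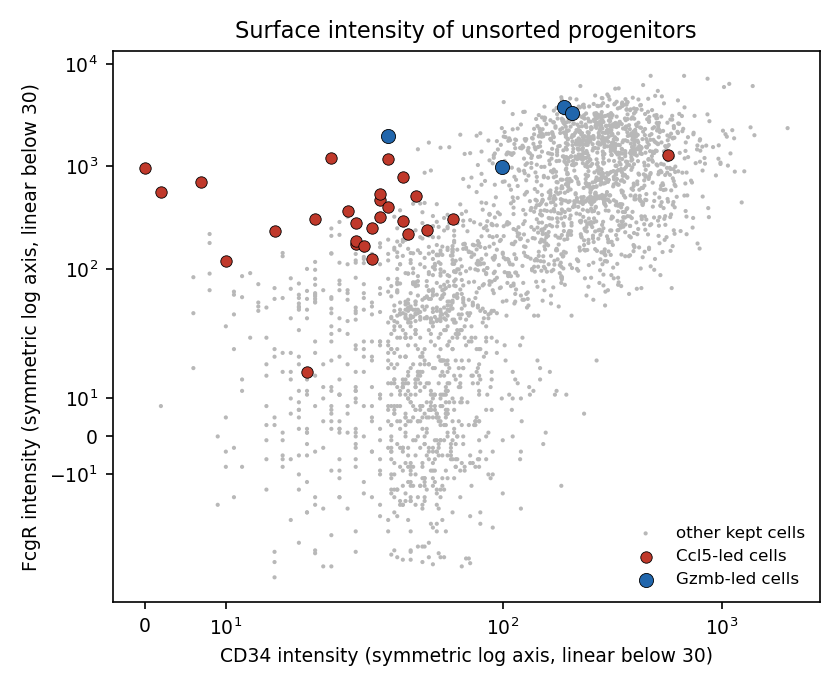
Index-sort intensity of FcgR against CD34 for unsorted progenitors, 1 point per cell, both axes logarithmic above 30 and linear below. Ccl5-led cells (27, red) sit at low CD34 with a median of 28, and the 4 Gzmb-led cells (blue) at FcgR of 986 to 3818.

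Outside the rare cells, Gzmb was concentrated in the Cebpa knockout. It had 96 UMIs in 72 of 1357 knockout cells (5.31%; 48 cells with 1 UMI and 24 with 2) and 3 UMIs in 3 of 889 control cells (0.337%). Over pools, the lowest, median and highest values were 0, 26.0 and 40.8 CPM in the knockout and 0, 0.723 and 3.30 CPM in the control. Of 12 knockout pools, 11 were above the highest control pool, and pool 4 had none. Summed over pools this was 23.1 CPM (18.7 to 28.2) against 1.04 CPM (0.215 to 3.05), a log2 ratio of 4.47 (counting interval 2.88 to 6.77). Gzmb was chosen with this difference known, so it carries no test. With rare cells counted from 2 UMIs, which leaves only single Gzmb UMIs outside them, the knockout stood at 11.4 CPM and the ratio was 3.45. The ratio was 4.04 (1.45 to 9.39) within batch SB23, 4.68 (2.77 to 7.76) within batch SB29, which holds the pools where label and table agree, and 4.07 without control pools 3 and 4. With each cell thinned to 1000 UMIs, 26 of 1049 knockout cells (2.48%) and 1 of 781 control cells (0.128%) had Gzmb, after 308 and 108 shallower cells were left out.

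**Figure D5:**
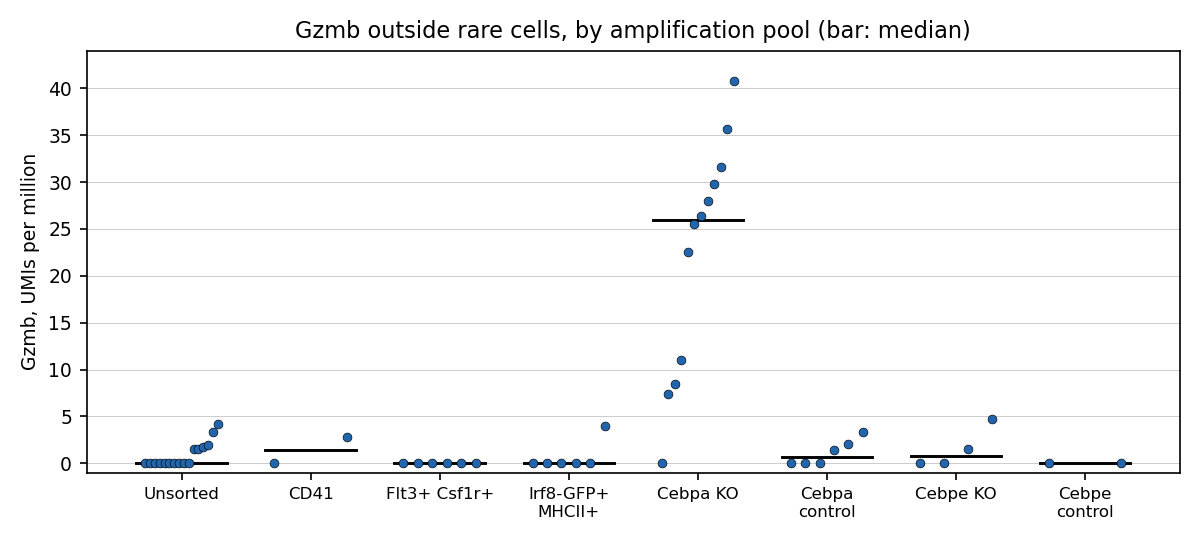
Gzmb outside rare cells (CPM, vertical axis) in each amplification pool, by group, with a bar at the median over pools. The Cebpa knockout pools reach 40.8 with a median of 26.0 and 1 pool at 0, and the highest pool of the other 7 groups stands at 4.77.

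Low Gzmb counts were also found in pools that had no Gzmb-led cell. The 8 knockout pools with a Gzmb-led cell had 24.2 CPM outside it, and the 4 pools without one had 19.8 CPM (0, 22.6, 28.0 and 40.8). NK markers were scarce in the cells compared: outside rare cells the list of 9 summed to 74.4 to 186 CPM in knockout pools and 13.2 to 135 CPM in control pools, nearly all of it Nkg7, and Klrd1, Klre1, Klrk1, Ncr1, Il2rb and Tbx21 were at 0 in the knockout.

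Gzmb was found in most classes of knockout cell. Cells were placed by their highest marker list score, outside rare cells. Erythroid cells had 36 Gzmb UMIs in 27 of 663 cells (4.07%, 12.9 CPM), while 0 of 335 control erythroid cells had one and 2 of 875 unsorted erythroid cells did (0.229%). Median depths of these erythroid cells were 3475, 4328 and 5308 UMIs. Early Apoe cells had 25 UMIs in 20 of 427 knockout cells (31.3 CPM) against 0 of 175 in the control. In megakaryocyte cells there were 12 UMIs in 8 of 89 cells (50.8 CPM), against 0 of 25 control cells. Stem or multipotent cells had 9 UMIs in 8 of 91 cells (42.2 CPM), against 0 of 54 in the control. Basophil and mast cells had Gzmb outside the Cebpa knockout too: 4 UMIs in 3 of 119 unsorted cells (15.3 CPM) and 2 in 2 of 54 Cebpe knockout cells (12.3 CPM). In the Cebpa knockout this class had 4 UMIs in 2 of 42 cells (52.2 CPM). The makeup of the groups differed as well: neutrophil and monocyte cells were 0.663% of the knockout cells and 25.3% of the control cells, and the 3 Gzmb UMIs of the control were in neutrophil and monocyte cells (2) and basophil and mast cells (1).

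Knockout cells with 1 or 2 Gzmb UMIs differed in other genes from the 1285 without. The genes compared were chosen after the Gzmb-led cells had been seen, and cells of a pool are not replicates, so these are values without a test. Median depth was 1539.5 UMIs with Gzmb and 1871 without. Scin stood at 430 CPM with Gzmb and 117 without, and was higher in 9 of the 11 pools that had such cells. Mpo was 3.03-fold higher (10 of 11 pools), Ifitm1 2.82-fold (10 of 11), F2r, the thrombin receptor of early progenitors and platelets, 2.70-fold (9 of 11) and Nkg7 3.11-fold (11 of 11). Lag3, an inhibitory receptor best known from T cells, had 14 UMIs (92.6 CPM) with Gzmb and 49 (12.2 CPM) without. Car1, a carbonic anhydrase of erythroid progenitors, was lower with Gzmb (3273 against 5654 CPM, lower in 10 of 11 pools), as was the platelet factor gene Pf4 (72.7 against 135). Of lymphoid genes, Ctsw had 8 UMIs (52.9 CPM) with Gzmb and 28 (6.98 CPM) without and was higher in 5 of 11 pools, and Klrb1c had 2 (13.2 CPM) and 7 (1.74 CPM). Il2rb and Klrk1 had 0 UMIs in either set. Of 23 index-sorted knockout cells with Gzmb, 17 lay above the CD34 median and 17 above the FcgR median of their pool. Batch SB23, whose knockout pools carry GEO labels of other groups, also held 23 such cells.

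Interferon-stimulated genes moved with the same contrast. Of 12 such genes, 7 were tested and 6 were higher in the Cebpa knockout by edgeR on pool sums (all genes: 573 of 5977, 9.59%), among them Rtp4 (log2 change 2.76 ± 0.30 SE, adjusted p 1.36e-07) and Irf7 (1.21 ± 0.20, adjusted p 0.000119). The list summed to 685 to 1278 CPM outside rare cells in knockout pools and 330 to 420 CPM in control pools. Unsorted pools stood at 565 to 850 CPM, a range that overlapped the knockout and lay above the control. Gzmb outside rare cells was at 0.812 CPM in unsorted cells. Within the knockout, in cells with and without Gzmb, Rtp4 was at 79.3 and 82.7 CPM, Xaf1 at 59.5 and 71.3 and Ifitm3 at 238 and 256. The part of interferon in the Gzmb difference was not tested.

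In the 4 comparisons that did not serve to choose it, Gzmb outside rare cells showed no difference past the threshold. It averaged 1.58 ± 2.25 CPM (SD, n = 4 pools) in the Cebpe knockout and 0 in both Cebpe control pools (exact permutation p = 0.8, with 0.133 the smallest this design allows). It averaged 0.894 ± 1.35 CPM in unsorted pools (n = 16), 1.41 ± 1.99 in the CD41 gate (n = 2), 0 in the Flt3+ Csf1r+ gate (n = 6) and 0.656 ± 1.61 in the Irf8-GFP+ MHCII+ gate (n = 6). The 2-sided exact permutation p against unsorted pools was 0.706, 0.215 and 0.837, and all 4 adjusted p were 0.837. Between 0 and 8 UMIs lay behind each of these group values.

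Ccl5 outside rare cells was highest in the Irf8-GFP+ MHCII+ gate, with 102 UMIs in 94 of 1078 cells (8.72%), 29.3 CPM (23.9 to 35.6). Its 6 pools ran from 11.2 through a median of 31.2 to 56.5 CPM. In the Cebpa knockout it was 8.65 CPM, in the Flt3+ Csf1r+ gate 5.90, in unsorted cells 4.87 and in the Cebpa control 1.74. Thinned to 1000 UMIs, 3.68% of cells in the Irf8-GFP+ MHCII+ gate had Ccl5 (38 of 1032), against 0.499% of unsorted, 0.669% of Flt3+ Csf1r+ and 0.953% of knockout cells. The pools of the gate with more Ccl5-led cells also had more Ccl5 outside them: pools 1 to 6, with 2, 12, 4, 7, 1 and 12 such cells, had 12.3, 35.2, 29.0, 33.5, 11.2 and 56.5 CPM. Whether molecules passed between wells of a pool was not tested. The NK list was at 179 CPM in the 94 cells and 164 CPM in the 984 cells without Ccl5, higher in 2 of 6 pools. Ccr7 was at 163 against 28.2 CPM (higher in 4 of 6 pools), Serpinb9 at 28.0 against 4.81 (4 of 6) and Il2rg, the common cytokine receptor chain, at 112 against 67.3 (6 of 6). Xcr1 was at 47.7 against 85.6 CPM and was higher in 1 of 6.

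The other cytotoxic genes were then tested on pool sums, where more cells of a type and more RNA per cell cannot be told apart. In the Cebpa comparison 6 of the 37 had enough counts, and 2 of them were called, against 1086 of 5977 genes (18.2%). Cst7, an inhibitor of granule cathepsins, rose (63.5 ± 24.8 CPM, SD, n = 12, against 25.0 ± 14.7, n = 6; log2 change 1.19 ± 0.31 SE, edgeR adjusted p 0.00709). Tyrobp, the adaptor DAP12 of myeloid and NK receptors, fell (log2 change -2.32 ± 0.18, adjusted p 9.99e-11; genes called lower 8.58%). Nkg7 (log2 0.76, adjusted p 0.0618), Srgn (-0.05), Il2rg (0.10) and Zeb2 (-0.39) did not pass. The median of the 6 was 0.03, and that of all genes 0.02. Beside this, 8 of 8 neutrophil and monocyte markers were lower in the knockout.

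In the Cebpe comparison 7 of the 37 were tested, 6 were higher in the knockout (all genes 13.5% higher, 9.85% lower, 23.4% called in all) and none was lower, with a median log2 change of 1.27 against -0.01 over all genes. They were Id2 (1.66 ± 0.37 SE), Tyrobp (1.61 ± 0.15), Srgn (1.41 ± 0.12), Cst7 (1.27 ± 0.16), Il2rg (1.20 ± 0.29) and Nkg7 (1.15 ± 0.14), each at an edgeR adjusted p of 0.00283 or less, while Zeb2 (0.18) did not pass. Here too the neutrophil and monocyte list moved, with 8 of 8 markers higher in the knockout, and its part in these changes was not tested. Summed by plate, 2 against 1, the same 6 genes were called higher, with the single control plate assumed to vary like the others. With the rare cells left out of the sums, the counts of called cytotoxic genes were the same in both comparisons.

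Of 6730 genes with at least 500 UMIs, those whose CPM over the 54 pools ranked most like that of Gzmb outside rare cells were Vamp5 (Spearman rho 0.63), Tspo2 (0.61), Optn (0.61), Abcb4 (0.60) and Nenf (0.60). Vamp5, a vesicle membrane protein, stood at 1168 CPM in the Cebpa knockout, 692 in its control and 490.5 in unsorted cells. The pools share groups and depth, so these values describe likeness only.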

How the data were processed

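Whole-number UMI counts per gene and well, deposited by the authors, were used as raw counts, and the authors' deposited well table gave each well's pool, plate, batch, description and index-sort fluorescence intensity (linear, unit not stated). The submitters' processing notes name bcl2fastq (version 2.15.0.4) and build mm9. The way from reads to UMIs was not given in the sources used here. Among the 27297 rows, 2109 join several symbols. Pools were grouped by the deposited description, since it and the GEO label differ for 18 of 54 pools.

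The 5 genes, the marker lists and the comparisons were chosen with earlier results of these data known. Named genes are the 5, the cytotoxic list, the 10 genes with the largest share in rare cells and the 5 most like Gzmb over pools; genes given for the Gzmb-led cells were chosen after their values were seen. Wells received single sorted cells, so no doublet caller was run. CPM is counts per 1000000 UMIs of the same cells, without further scaling. Pool sums were tested with edgeR 4.0.16 in R 4.3.3 (quasi-likelihood test with TMM factors after filterByExpr; calls at a Benjamini-Hochberg adjusted p under 0.05). In a simulation at these depths and pool numbers, changes of 2-fold were recovered in 84.8% and of 4-fold in 100% of cases for Cebpa (5544 genes), and in 54.9% and 96.6% for Cebpe (6957 genes); 5.20% and 7.53% of the calls were false. DESeq2 1.42.0, other filters, minimum depths, groupings and left-out pools were tried as alternatives.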

Additional observations from a re-analysis of the deposited data

Results flagged for a closer look

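In groups of 4 to 10 pools, a pool whose distance from the nearest other took up most of the range of its group was marked. This distance was 0.76 of the range or more in those marked, and 8 of 17 combinations of group and measure had one. Chance marks about 1 in 20 such groups, but here most values are at 0 and a single cell or UMI sets the pool apart. By share of rare cells these were pool 6 of the Flt3+ Csf1r+ gate (0.526%), pool 4 of the Cebpa control (0.617%) and pool 3 of the Cebpe knockout (0.735%), each with 1 rare cell where the other pools had 0. Gzmb outside rare cells stood at 3.94 CPM in pool 4 of the Irf8-GFP+ MHCII+ gate and at 0 in its other 5 pools. Ccl5 outside rare cells stood at 5.79 CPM in Cebpa control pool 3, with the next pool at 1.37. In the Cebpe knockout, pool 1 had 2.27 CPM of Ccl5, both over all cells and outside rare cells, and pool 2 had 2.31 CPM of Xcl1, with the other pools at 0.

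Single-cell wells under 500 UMIs were not used in the report. Of 1861 such wells, 13 (0.699%) had 3 or more UMIs of the 5 genes, with 235 to 477 UMIs in all, against 0 of 108 wells without a cell. They held 97 Ccl5 and 8 Xcl1 UMIs and no Gzmb, and 12 of the 13 were from unsorted pools. The count of unsorted Ccl5-led cells therefore depends on the depth required of a well.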

How the results depend on the processing

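The share of rare cells, 1.21% of kept cells, was 0.932% with at least 1000 UMIs per cell, 1.76% with 2 or more UMIs summed, 0.905% with 5 or more and 0.635% with each cell thinned to 1000 UMIs. By group, unsorted cells went from 1.17% to 0.455% with at least 1000 UMIs, while the Irf8-GFP+ MHCII+ gate stayed at 3.37%, and the cause was not tested. The Cebpa knockout went from 1.95% to 4.05% at 2 or more UMIs and to 1.01% at 5 or more, where it lay below unsorted cells (1.10%). With no minimum of UMIs per cell it was 1.23% (28 of 2280), again below unsorted cells (1.45%). Over 30 alternatives the log2 ratio of Gzmb outside rare cells, knockout over control, ran from 3.45 with rare cells counted from 2 UMIs to 5.31 with rare cells kept in. In 18 of them a single pool was left out (4.05 to 4.89). Gzmb was chosen with this difference known and the alternatives share most pools, so a constant sign is no separate support. Of the 4 other Gzmb comparisons, CD41 minus unsorted (0.51 CPM) became -2.55 CPM with rare cells kept in and ranged from -0.89 (without CD41 pool 2) to 1.92 with single pools left out. Flt3+ Csf1r+ minus unsorted (-0.89 CPM) became 0.35 with pools grouped by the GEO label. Cebpe knockout minus control (1.58 CPM) ranged from 0.52 to 2.11, and was 3.90 with rare cells kept in and 12.6 by the GEO label. Genes called in the Cebpa comparison, 1086, were 68 with the GEO label's groups, 463 in the pools where both sources agree, 447 with plates as the unit, and 752 to 1363 with single pools left out. In the Cebpe comparison 1721 became 908 to 1652 with single pools left out, the lowest without Cebpe control pool 2, and 1319 with plates as the unit. Smaller numbers of samples enter the agreeing pools and the plates; for the other changes the cause was not tested. The shares of rare cells by GEO label or in agreeing pools, the calls without rare cells and the Cebpe plates were added after seeing the data. No paired analysis was possible because pool numbers were given in accession order and pair no samples. Depth limits all statements on Gzma, Xcl1 and Eomes outside rare cells, where each had 15 UMIs or fewer in all.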

Other observations

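Wells in the last plate columns, 20 to 24, held 15 of the 28 unsorted Ccl5-led cells (53.6%) and 21.0% of all unsorted kept cells. In the Irf8-GFP+ MHCII+ gate the same columns held 11 of 38 Ccl5-led cells against 20.3% of kept cells, and in the Cebpa knockout 2 of 10 against 14.7%. The pattern was noticed in the data and was not tested.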
